A study of Homo sapiens with 18 samples.

Results

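The 10 ERK pathway feedback genes described here are DUSP4, DUSP5, DUSP6, SPRY1, SPRY2, SPRY4, SPRED1, SPRED2, ETV4 and ETV5. They were taken by symbol from a table of 28266 genes. All 10 had a row, and all 10 were among the 14341 genes that passed the filter on low counts. The RNA came from IMR90 ER:RAS cells, human lung fibroblasts that carry a fusion of the oestrogen receptor with RAS. The fusion stays inactive until 4-hydroxytamoxifen (4OHT) is added and then induces oncogene-induced senescence (OIS). Control cells carried the same fusion and received DMSO in place of 4OHT, and senescent cells received 4OHT at 100 nM. After 7 days, both were given DMSO, IMP1088 at 300 nM or DDD86481 at 1.5 µM, and the cells remaining after 3 more days, on day 10, were collected. IMP1088 and DDD86481 are N-myristoyltransferase inhibitors (NMTi), which block the attachment of the fatty acid myristate to proteins. Each of the 6 groups had 3 libraries, and all carried the genotype label WT. The labels do not say that the 3 replicates came from separate cultures. The study's legend for a heatmap of cells given these treatments has n = 3, with N counting independent experiments. The p-values measure only the spread between these libraries.

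The RAS-RAF-MEK-ERK cascade passes growth signals from receptors at the plasma membrane to the nucleus, and RAS is its oncogene in this model. Active ERK raises the transcription of these genes, and the products of most of them dampen the same cascade at several levels. Dual-specificity phosphatases (DUSPs) remove the activating phosphates from ERK itself, Sprouty (SPRY) and SPRED proteins limit the passage of signal from receptors through RAS to RAF, and the ETS-family factors ETV4 and ETV5 carry the response on to further genes. Because their transcripts follow ERK activity closely in many cells, these genes are often read together as a record of ERK output.

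Library totals ran from 16143716 to 23189950 counts. Expression is given in CPM, counts scaled to a common library size by TMM, as mean ± SD of the 3 libraries. Log2 fold changes are followed by their SE and by a p-value from the quasi-likelihood test of edgeR, adjusted over all genes tested. Both parts of the fusion were counted at high levels in every library. HRAS counted 3031 to 3248 CPM in control cells with DMSO and 5312 to 6062 CPM in senescent cells with DMSO, and ESR1, the oestrogen receptor gene, 1197 to 1784 and 2949 to 3332 CPM. Fusion and endogenous transcripts share these counts, and since the controls carry the fusion too, neither gene checks the 4OHT label. All 6 fibroblast markers (COL1A1, COL1A2, COL3A1, VIM, PDGFRB and THY1) were above the floor of 3 counts in every group. Their summed level was 20602 to 27238 CPM in control cells with DMSO, 27646 to 29983 CPM with IMP1088 and 27296 to 32910 CPM with DDD86481, and in senescent cells it was 16348 to 16727 CPM with DMSO and 11313 to 12102 CPM with either inhibitor. The 6 genes did not all follow the sum. VIM was higher in senescent than in control cells with DMSO (11681 against 5035 CPM on average), and COL1A2 rose in senescent cells from 708 CPM with DMSO to 1385 CPM with IMP1088 and 1685 CPM with DDD86481. Epithelial markers (EPCAM, CDH1 and KRT5) summed to at most 1.49 CPM and immune markers (PTPRC, CD3E and CD14) to at most 0.874 CPM in any library, with KRT5 and CD3E at 0 throughout. Endothelial markers (PECAM1, CDH5 and VWF) summed to 1.05 to 1.73 CPM in control cells with DMSO and 2.62 to 3.79 CPM with an inhibitor, and to 10.0 to 10.6 CPM in senescent cells with DMSO and 5.40 to 8.57 CPM with an inhibitor. The part of these markers in the results was not tested. Control DMSO replicate 3 stood apart from the other replicates of its group, with a chi-square per gene of 103.6 against replicate 1 and 52.3 against replicate 2, where no other pair of replicates was above 27.9. Without it, 9 of the 10 genes still rose and 1 fell in senescent cells with DMSO, 2 rose and none fell with each inhibitor in control cells, and 6 had a lower response to each inhibitor in senescent cells. Shares over all genes were not computed for that fit. With all libraries, 68.5% of all genes passed in senescence, and 33.7% with IMP1088 and 36.6% with DDD86481 in control cells. For the difference in response between the states, 26.2% passed with IMP1088 and 30.3% with DDD86481.

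To see how feedback genes responded to RAS-induced senescence, senescent and control cells were compared, both with DMSO. Transcripts of 9 of the 10 genes rose and those of SPRY1 fell. Among all 14341 genes 68.5% passed the test, 32.5% higher and 36% lower. The median log2 fold change was 1.86 for the 10 genes and -0.051 for all genes. The 3 phosphatase genes, SPRY2 and SPRY4 rose most, and the changes of SPRED1 and ETV5 were the smallest of the 10. In bulk RNA a change in the number of cells of one kind and a change of RNA per cell cannot be told apart.

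DUSP4 encodes a nuclear phosphatase that inactivates ERK and related kinases. It measured 4.68, 5.95 and 4.78 CPM in the control libraries and 129, 129.6 and 135 CPM in the senescent libraries. The levels were far apart, and the change was 25.4-fold (log2 fold change 4.67 ± 0.13, adjusted p = 5.95e-17). Among all genes tested, 1.76% had a larger increase. DUSP5, a nuclear phosphatase specific for ERK, went from 40.4 ± 8.42 to 383 ± 68.3 CPM (log2 fold change 3.25 ± 0.17, adjusted p = 6.94e-13). Its lowest senescent library, at 327 CPM, was well above the highest control library, at 50.1 CPM. DUSP6, the cytoplasmic phosphatase that acts on ERK, measured 92.8, 103 and 104 CPM in control libraries and 799, 764 and 717 CPM in senescent libraries (log2 fold change 2.92 ± 0.12, adjusted p = 2.48e-14). Per kilobase of transcript DUSP6 had the highest level of the 10 genes in both states, 27.6 CPM per kb in control and 209.5 CPM per kb in senescent cells. DUSP4, in contrast, was lowest in control cells, at 0.925 CPM per kb, and ranked 6 in senescent cells, at 23.6 CPM per kb. An unnamed antisense gene shares 28.6% of the exonic bases of DUSP6, and the methods name a first-strand setting for the alignment but none for the counting, so its reads may be included.

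**Figure D1:**
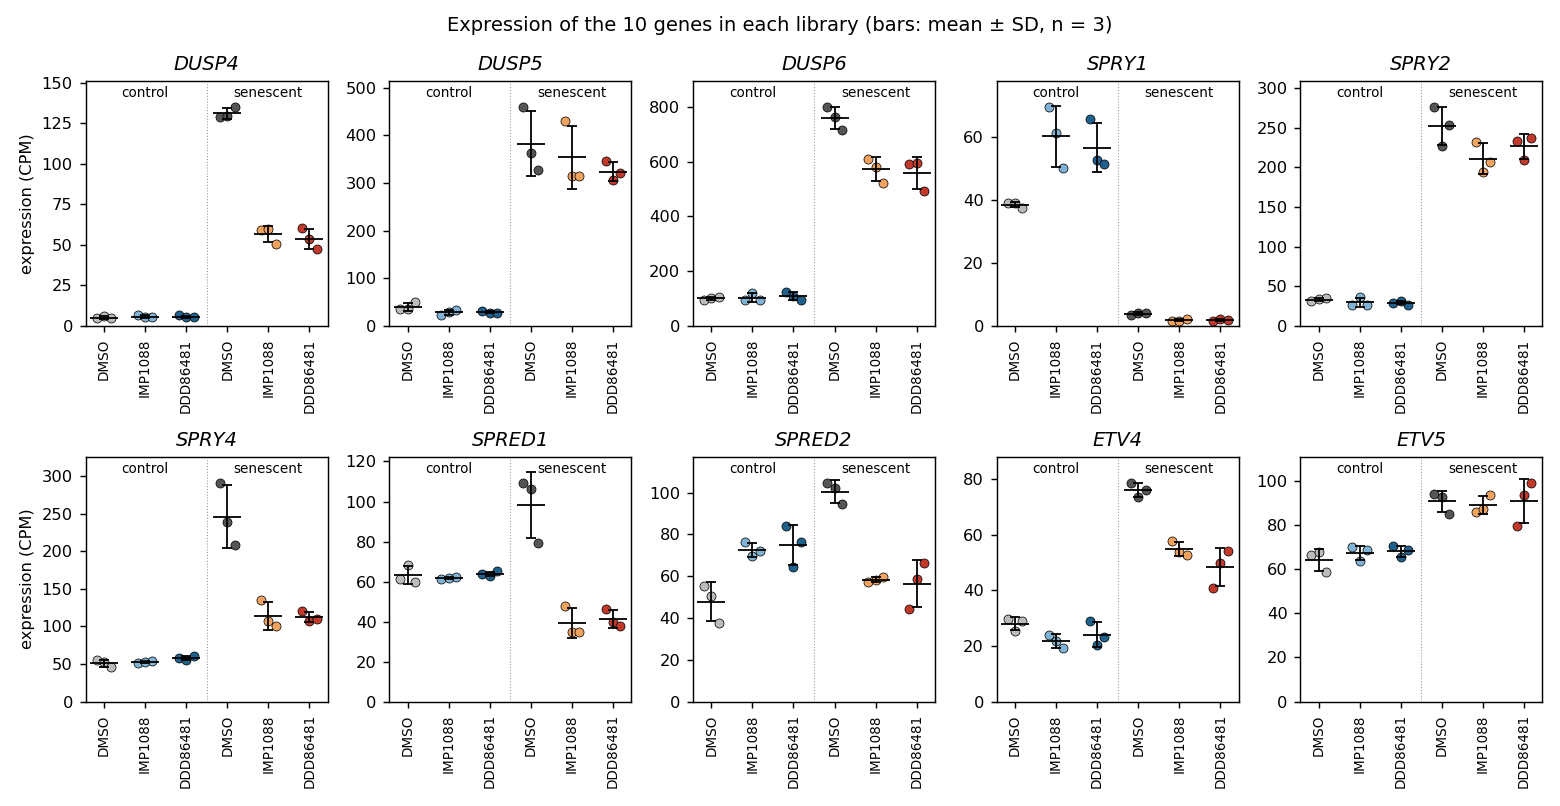
Expression in CPM (vertical axis, linear, from 0) of each gene in the 6 groups, control to the left and senescent to the right of the dotted line. Points are the 3 libraries, bars the mean ± SD. In senescent cells with DMSO, 9 genes stand above control cells with DMSO and SPRY1 stands below, and DUSP4, SPRY4, SPRED1 and SPRED2 are visibly lower with either inhibitor.

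The Sprouty genes did not move together. SPRY1 measured 38.9, 39.1 and 37.5 CPM in control libraries and 3.33, 3.92 and 4.23 CPM in senescent libraries, a 10.02-fold fall (log2 fold change -3.32 ± 0.16, adjusted p = 1.32e-13). SPRY2 rose from 33.2 ± 2.09 to 252 ± 24.4 CPM (log2 fold change 2.93 ± 0.12, adjusted p = 2.03e-14). SPRY4 measured 54.9, 52.1 and 45.8 CPM in control libraries and 291, 239 and 208 CPM in senescent libraries (log2 fold change 2.27 ± 0.12, adjusted p = 1.46e-12). None of the 3 genes had overlapping groups. How many of all genes lack overlap was not counted, so this describes levels only. Per kilobase, SPRY1 and SPRY2 stood close in control cells with DMSO, at 14.8 and 14.5 CPM per kb, and far apart in senescent cells, at 1.47 and 110.3 CPM per kb.

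As SPRY1 and SPRY2 moved in opposite directions, 1 promoter window of each is shown from RefSeq on GRCh38.p14, from 250 bases before a transcript start to 50 after it, on the strand of the gene. The table held 2 windows for SPRY1 and 3 for SPRY2, and the window shown is for each gene the one that holds the letters searched. For SPRY1 it lies at a start inside the gene, downstream of the gene's first base, and the window at the first base holds no match. SPRY1 spans chr4:123396795-123403760 and SPRY2 spans chr13:80335976-80341126. Capitals mark the letters CCGGAA, a core that ETS-family factors bind, which was searched on both strands.
SPRY1 promoter (chr4:123398136-123398435, plus strand): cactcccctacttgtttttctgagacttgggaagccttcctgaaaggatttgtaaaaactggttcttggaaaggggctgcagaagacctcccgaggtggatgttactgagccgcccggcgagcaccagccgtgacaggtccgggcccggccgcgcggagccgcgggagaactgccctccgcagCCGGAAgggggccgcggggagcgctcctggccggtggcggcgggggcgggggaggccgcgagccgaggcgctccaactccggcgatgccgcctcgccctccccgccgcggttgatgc
SPRY2 promoter (chr13:80341077-80341376, minus strand): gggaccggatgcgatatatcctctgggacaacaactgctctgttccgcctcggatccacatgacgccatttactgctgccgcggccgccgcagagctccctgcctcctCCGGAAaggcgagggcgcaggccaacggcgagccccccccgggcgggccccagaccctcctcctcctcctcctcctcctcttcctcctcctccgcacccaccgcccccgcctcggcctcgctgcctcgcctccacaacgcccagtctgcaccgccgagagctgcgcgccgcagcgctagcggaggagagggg

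The ETS letters began 67 bases before the start in the SPRY1 window shown and 142 bases before it in the SPRY2 window shown, and the other windows of both genes held none. The table held 10 windows for 6 of the 10 genes (DUSP6, SPRY1, SPRY2, SPRY4, SPRED1 and SPRED2). DUSP4, DUSP5, ETV4 and ETV5 had no entry. CCGGAA was in 1 window each of SPRY1 and SPRY2 and in none of the other 4 genes, and 17.2% of all 35116 promoter windows hold it. AP-1 letters (TGANTCA) were in 7.71% of all windows and, among the 10 genes, only in the window of a second SPRED2 start. The CRE letters (TGACGTCA) and the CArG box, found in 1.85% and 1.29% of all windows, were in none of the 10. These matches describe letters in a window and are not evidence of binding.

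SPRED proteins bring the RAS inactivator neurofibromin to the membrane. SPRED1 measured 61.3, 68.2 and 59.7 CPM in control and 109, 106 and 79.3 CPM in senescent libraries (log2 fold change 0.64 ± 0.13, adjusted p = 0.000139). SPRED2 measured 55.3, 50.5 and 37.6 and 105, 102 and 94.4 CPM (log2 fold change 1.07 ± 0.14, adjusted p = 8.96e-07). The groups of both genes did not overlap, again with no share over all genes counted. For SPRED1, 1 senescent library lay well below the other 2. ETV4 rose from 28.04 ± 2.28 to 76.1 ± 2.53 CPM (log2 fold change 1.44 ± 0.13, adjusted p = 2.84e-09), and ETV5 from 64.3 ± 5.01 to 90.7 ± 4.82 CPM (log2 fold change 0.50 ± 0.091, adjusted p = 7.22e-05). ETV5 had the smallest increase of the 9 genes, but its lowest senescent library, at 85.2 CPM, was still above its highest control library, at 67.99 CPM. Exons shared with neighbouring genes made up 1.93% of ETV4 and 2.84% of ETV5.

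Both inhibitors were then compared with DMSO in senescent cells. With IMP1088, 7 of the 10 genes fell and 3 (DUSP5, SPRY2 and ETV5) did not pass the test. With DDD86481, 7 fell and 3 did not pass. Among all genes 44.4% passed with IMP1088 (23.9% lower, 20.6% higher), and 43.2% with DDD86481 (23.1% lower, 20.1% higher). The median of the 10 genes was -0.63 with IMP1088 and -0.74 with DDD86481, beside -0.043 and -0.037 for all genes. Both comparisons use the same DMSO libraries, and the compounds were given at different doses, so their values are set side by side and not compared. The summed level of the fibroblast markers was lower in the same libraries, at most 12102 CPM against at least 16348 CPM with DMSO, with 5 of the 6 lower and COL1A2 higher, and their part in these results was not tested.

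DUSP4 dropped to 58.99, 59.6 and 50.7 CPM with IMP1088 and to 60.1, 53.4 and 47.4 CPM with DDD86481, against the 129 to 135 CPM of the senescent DMSO libraries. The change on the log2 scale was -1.22 ± 0.11, adjusted p = 3.95e-08 with IMP1088 and -1.29 ± 0.11, adjusted p = 2.23e-08 with DDD86481. Every treated library thus stood below the DMSO range and still above all control libraries, the highest of which was 6.52 CPM. DUSP6 fell less, to 610.0, 582 and 524 CPM with IMP1088 (log2 fold change -0.41 ± 0.11, adjusted p = 0.00609) and to 591, 594 and 493 CPM with DDD86481 (log2 fold change -0.44 ± 0.11, adjusted p = 0.00368). DUSP5 measured 354 ± 66.7 CPM with IMP1088 and 324 ± 20.02 CPM with DDD86481, and its ranges overlapped that of DMSO. On the log2 scale the difference was -0.11 ± 0.15, adjusted p = 0.580 (95% interval -0.45 to 0.22) with IMP1088 and -0.24 ± 0.15, adjusted p = 0.213 (95% interval -0.58 to 0.091) with DDD86481, neither past the threshold.

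SPRY4 measured 135, 107 and 99.9 CPM with IMP1088 and 119.8, 107 and 109.9 CPM with DDD86481, below all senescent DMSO libraries. On the log2 scale SPRY4 changed by -1.11 ± 0.12 with IMP1088 (adjusted p = 3.11e-07) and by -1.13 ± 0.12 with DDD86481 (adjusted p = 2.77e-07). SPRY1, already low in senescent cells, fell further to 1.53, 1.57 and 2.19 CPM with IMP1088 (log2 fold change -1.13 ± 0.20, adjusted p = 0.000132) and 1.53, 2.09 and 1.78 CPM with DDD86481 (log2 fold change -1.09 ± 0.20, adjusted p = 0.000197). These levels rest on 28 to 40 counts per library, against 54 to 77 with DMSO. The direction of SPRY1 in senescent cells was therefore downward under 4OHT and downward again under each inhibitor. SPRY2 measured 252 ± 24.4 CPM with DMSO, 211 ± 19.9 CPM with IMP1088 and 226 ± 15.2 CPM with DDD86481, with overlapping ranges. It did not pass the test with IMP1088 (log2 fold change -0.26 ± 0.11, adjusted p = 0.0676, 95% interval -0.50 to -0.014) or with DDD86481 (log2 fold change -0.16 ± 0.11, adjusted p = 0.276, 95% interval -0.40 to 0.088). With IMP1088 the call of SPRY2 was gained when only the groups compared were fitted (adjusted p = 0.0183), and when senescent DMSO replicate 2 (log2 fold change -0.33, adjusted p = 0.0416) or senescent IMP1088 replicate 1 (log2 fold change -0.33, adjusted p = 0.0433) was left out.

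SPRED1 fell the most of the 10 genes with IMP1088, to 47.8, 34.8 and 34.9 CPM (log2 fold change -1.33 ± 0.13, adjusted p = 8.65e-08), and to 46.1, 40.01 and 37.5 CPM with DDD86481 (log2 fold change -1.25 ± 0.13, adjusted p = 1.94e-07). All 6 treated senescent libraries were below every control library of any treatment, the lowest of which was 59.7 CPM. SPRED2 measured 57.3, 58.2 and 59.5 CPM with IMP1088 (log2 fold change -0.78 ± 0.14, adjusted p = 0.000109) and 44.2, 58.5 and 66.5 CPM with DDD86481 (log2 fold change -0.83 ± 0.14, adjusted p = 6.17e-05). Only the DDD86481 libraries overlapped the range of control cells with DMSO, 37.6 to 55.3 CPM. ETV4 was at 54.9 ± 2.62 CPM with IMP1088 (log2 fold change -0.47 ± 0.12, adjusted p = 0.00380) and 48.4 ± 6.74 CPM with DDD86481 (log2 fold change -0.65 ± 0.12, adjusted p = 0.000239). ETV5 was at 89.02 ± 4.04 CPM with IMP1088 (log2 fold change -0.027 ± 0.091, adjusted p = 0.835, 95% interval -0.23 to 0.17) and 90.9 ± 10.02 CPM with DDD86481 (log2 fold change 0.0023 ± 0.091, adjusted p = 0.989, 95% interval -0.20 to 0.20), and did not pass the test. Within each role, then, some genes fell and others did not pass, apart from the SPRED pair, of which both fell.

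Control cells gave few calls. With IMP1088, SPRY1 and SPRED2 rose, DUSP5 and ETV4 fell and 6 genes did not pass the test. With DDD86481, SPRY1 and SPRED2 rose, DUSP5 fell and 7 did not pass. Of all genes 33.7% passed with IMP1088 (16.3% higher, 17.4% lower) and 36.6% with DDD86481 (17.8% higher, 18.7% lower), so the count of the 10 genes was near that background. The median log2 fold change of the 10 genes was 0.047 with IMP1088 and 0.11 with DDD86481. The comparisons share the control DMSO libraries, and the doses differ as above. The summed level of the fibroblast markers was higher in all 6 treated control libraries, at least 27296 CPM against at most 27238 CPM with DMSO, with 2 of the 6 higher and 2 lower, and their part in these results was not tested.

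SPRY1 measured 69.4, 61.2 and 49.98 CPM in control cells with IMP1088 and 65.6, 52.7 and 51.4 CPM with DDD86481, all above the 37.5 to 39.1 CPM of DMSO. On the log2 scale SPRY1 rose by 0.64 ± 0.13 with IMP1088 (adjusted p = 0.000641) and by 0.55 ± 0.13 with DDD86481 (adjusted p = 0.00220). SPRED2 measured 76.1, 69.5 and 71.98 CPM with IMP1088 (log2 fold change 0.60 ± 0.14, adjusted p = 0.00229) and 83.8, 64.5 and 76.5 CPM with DDD86481 (log2 fold change 0.65 ± 0.14, adjusted p = 0.00118), and every treated library again stood above the DMSO libraries. DUSP5 measured 35.95, 35.1 and 50.1 CPM with DMSO, 23.5, 28.99 and 33.5 CPM with IMP1088 and 30.8, 26.4 and 27.4 CPM with DDD86481 (log2 fold changes -0.49 ± 0.16, adjusted p = 0.0239 and -0.51 ± 0.16, adjusted p = 0.0175). One DMSO library stood above the other 2. Without it, control DMSO replicate 3, neither call of DUSP5 was kept (log2 fold change -0.31, adjusted p = 0.141 with IMP1088, and -0.33, adjusted p = 0.110 with DDD86481). The IMP1088 call was also lost without control IMP1088 replicate 1 or 2 (adjusted p = 0.137 and 0.0555) and the DDD86481 call without control DDD86481 replicate 2 or 3 (adjusted p = 0.0594 and 0.0583).

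ETV4 fell with IMP1088 in control cells, from 28.04 ± 2.28 to 21.7 ± 2.40 CPM (log2 fold change -0.37 ± 0.13, adjusted p = 0.0319), a call that was lost without control DMSO replicate 1 or 3 or control IMP1088 replicate 2 or 3, with adjusted p of 0.0636 to 0.153. With DDD86481 ETV4 was at 24.1 ± 4.48 CPM and passed the test when control DDD86481 replicate 1 was left out (log2 fold change -0.37, adjusted p = 0.0429). SPRY2 passed with IMP1088 when control IMP1088 replicate 2 was left out (log2 fold change -0.32, adjusted p = 0.0415). The genes that missed the threshold had log2 fold changes from -0.16 to 0.15 with IMP1088 (adjusted p from 0.296 to 0.871) and from -0.22 to 0.19 with DDD86481 (adjusted p from 0.185 to 0.933). DUSP4, SPRY4, SPRED1 and DUSP6 are among them, all of which fell with both inhibitors in senescent cells.

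**Figure D2:**
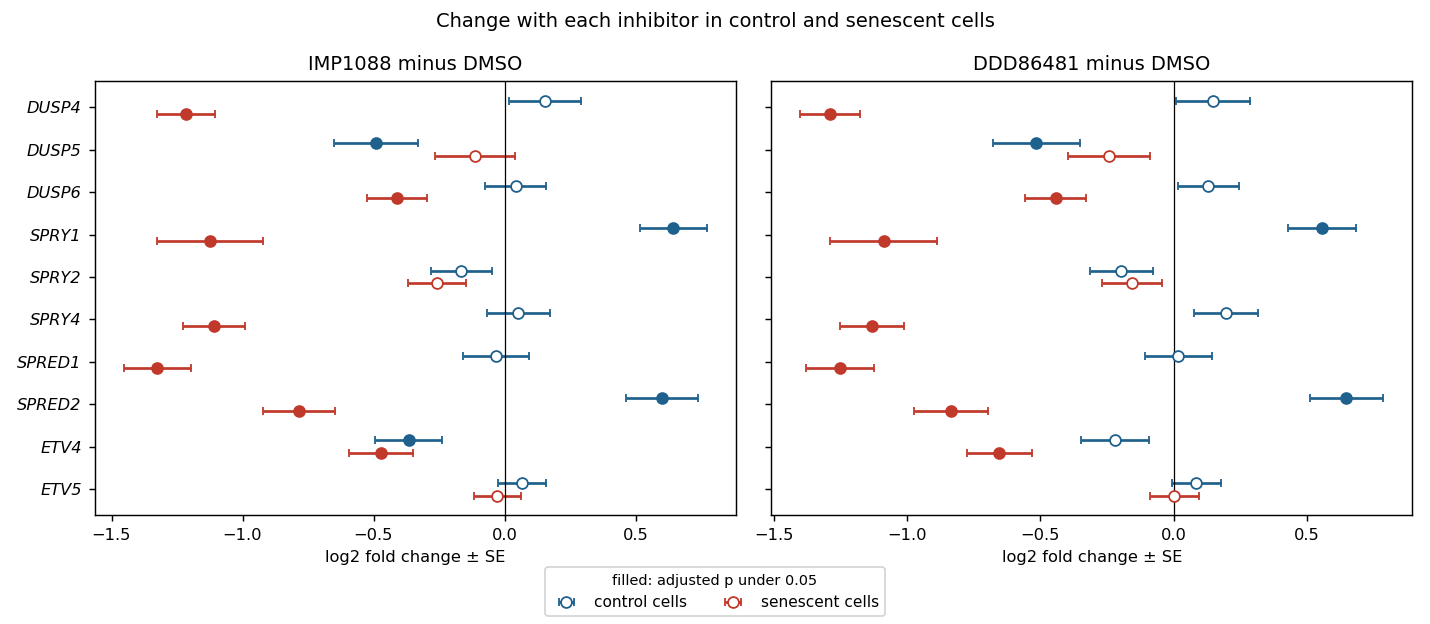
Log2 fold change ± SE (horizontal axis) of each gene with IMP1088 (left) and DDD86481 (right) against DMSO, in control (blue) and senescent cells (red), with filled points past an adjusted p of 0.05. In senescent cells 7 filled points lie left of 0 in each panel, whereas SPRY1 and SPRED2 lie right of 0 in control cells and left of it in senescent cells.

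To test whether the inhibitors acted differently in the 2 states, the change in control cells was subtracted from the change in senescent cells with an interaction term. For each inhibitor 6 of the 10 genes had a lower response in senescent cells (DUSP4, DUSP6, SPRY1, SPRY4, SPRED1 and SPRED2), and none had a higher one. Of all genes 26.2% passed for IMP1088 (14.2% lower, 12.1% higher) and 30.3% for DDD86481 (15.9% lower, 14.4% higher). With upper quartile scaling the larger share of all genes called was higher, 2061 higher and 1820 lower for IMP1088 and 2392 higher and 2052 lower for DDD86481, and the SPRY1, SPRED2, DUSP4, SPRY4 and SPRED1 calls kept their direction. The summed fibroblast markers were lower with each inhibitor in senescent and higher in control cells, as SPRY1 and SPRED2 were, and their part was not tested. The median of the 10 genes was -0.81 for IMP1088 and -0.92 for DDD86481. SPRY1 had the largest log2 difference, -1.77 ± 0.24, adjusted p = 2.67e-05 for IMP1088 and -1.64 ± 0.24, adjusted p = 5.67e-05 for DDD86481, with opposite directions in the 2 states. SPRED2 also changed in opposite directions, with a log2 difference of -1.38 ± 0.20, adjusted p = 4.42e-05 for IMP1088 and -1.48 ± 0.20, adjusted p = 2.02e-05 for DDD86481. For DUSP4, SPRY4 and SPRED1 there was a fall in senescent cells and no call in control cells. DUSP4 differed by -1.37 ± 0.18 for IMP1088 and -1.44 ± 0.18 for DDD86481 on the log2 scale (adjusted p = 1.77e-05 and 1.09e-05). SPRY4 differed by -1.16 ± 0.17 and -1.33 ± 0.17 (adjusted p = 5.99e-05 and 1.39e-05), and SPRED1 by -1.29 ± 0.18 and -1.27 ± 0.18 (adjusted p = 3.49e-05 and 4.08e-05).

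The difference for DUSP6 was the smallest of the 6 and the least certain, a log2 difference of -0.45 ± 0.16, adjusted p = 0.0454 for IMP1088 and -0.57 ± 0.16, adjusted p = 0.0127 for DDD86481. For IMP1088 it was kept only when replicate 3 of senescent DMSO, control DMSO or control IMP1088 was the library left out. It was lost in the other 9 of 12 such fits, with an adjusted p of up to 0.202 (log2 difference -0.28) without control IMP1088 replicate 2, the library with the highest DUSP6 level among control cells with IMP1088. It was also lost with upper quartile scaling (-0.40, adjusted p = 0.0815) and with only the groups compared (-0.42, adjusted p = 0.0616). For DDD86481 it was lost in 1 of 12, without control DDD86481 replicate 1 (log2 difference -0.44, adjusted p = 0.0582). DUSP5, SPRY2, ETV4 and ETV5 did not pass for either inhibitor, with log2 differences from -0.11 to 0.38 for IMP1088 (adjusted p from 0.215 to 0.705) and from -0.43 to 0.27 for DDD86481 (adjusted p from 0.0688 to 0.874). ETV4 passed for DDD86481 without senescent DDD86481 replicate 3, control DMSO replicate 1 or control DDD86481 replicate 2, with differences from -0.52 to -0.48 and adjusted p of 0.0361 to 0.0456.

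Seen from the other side, senescent and control cells were compared under each inhibitor. With IMP1088, 7 of the 10 genes were higher in senescent cells and 3 were lower, where 74.1% of all genes passed (36.2% higher, 37.9% lower). With DDD86481 there were again 7 higher and 3 lower, where 74% of all genes passed (36.1% higher, 37.9% lower). DUSP4 was higher in senescent cells by a log2 fold change of 3.30 ± 0.13 with IMP1088 and 3.23 ± 0.13 with DDD86481 (adjusted p = 7.07e-15 and 1.10e-14). In the same order, DUSP5 was higher by 3.63 ± 0.17 and 3.52 ± 0.17 (adjusted p = 1.56e-13 and 2.44e-13), and DUSP6 by 2.47 ± 0.12 and 2.35 ± 0.12 (adjusted p = 2.46e-13 and 5.27e-13). SPRY2 was higher by 2.83 ± 0.12 and 2.97 ± 0.12 on the log2 scale (adjusted p = 3.12e-14 and 1.71e-14), beside 2.93 with DMSO. SPRY4 was higher by 1.11 ± 0.12 and 0.94 ± 0.12 on the log2 scale (adjusted p = 6.18e-08 and 5.84e-07), beside 2.27 with DMSO. ETV4 was higher by 1.34 ± 0.13 and 1.01 ± 0.13 on the log2 scale (adjusted p = 9.54e-09 and 5.34e-07), and ETV5 by 0.40 ± 0.091 and 0.41 ± 0.091 (adjusted p = 0.000528 and 0.000416). SPRY1 was lower by more than its -3.32 with DMSO, at -5.09 ± 0.17 and -4.97 ± 0.17 on the log2 scale (adjusted p = 7.15e-16 and 1.12e-15).

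The SPRED genes turned direction. Both were higher in senescent than in control cells with DMSO, and both were lower with either inhibitor. For SPRED1 the log2 fold changes were 0.64 ± 0.13 with DMSO, -0.65 ± 0.13, adjusted p = 0.000112 with IMP1088 and -0.63 ± 0.13, adjusted p = 0.000165 with DDD86481. For SPRED2 they were 1.07 ± 0.14 with DMSO, -0.31 ± 0.14, adjusted p = 0.0457 with IMP1088 and -0.41 ± 0.14, adjusted p = 0.0112 with DDD86481. The SPRED2 difference with IMP1088 lost its call whichever of the 6 libraries was left out, with log2 fold changes of -0.34 to -0.28 and adjusted p of 0.0606 to 0.122, and with DESeq2 (-0.29, adjusted p = 0.0635). With DDD86481 it lost its call without senescent DDD86481 replicate 1 (-0.26, adjusted p = 0.0896) or control DDD86481 replicate 1 (-0.32, adjusted p = 0.0688).

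**Figure D3:**
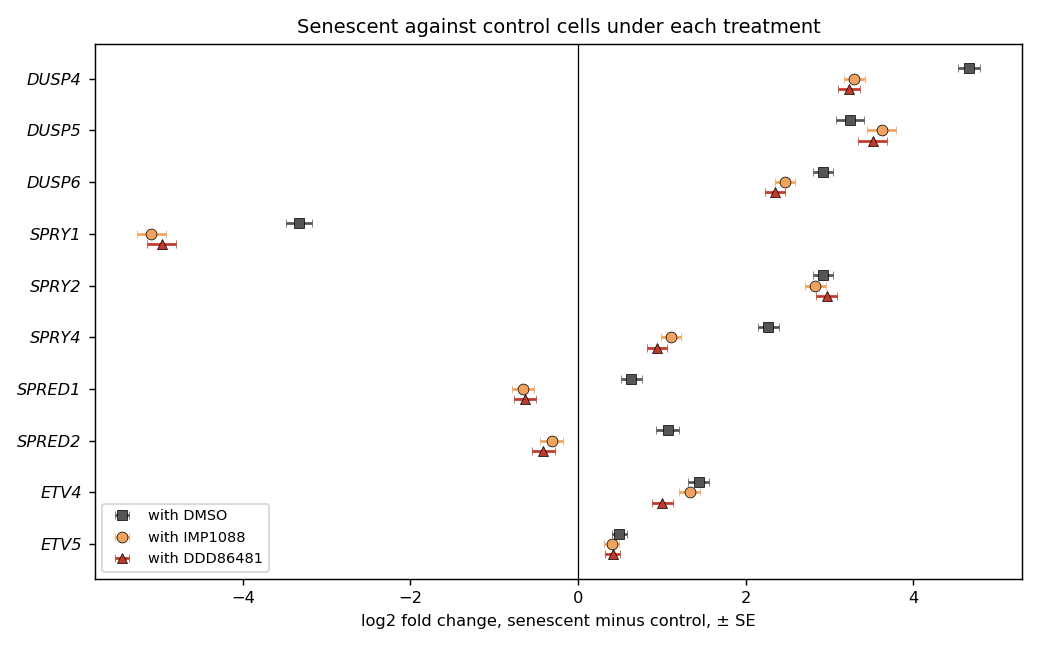
Log2 fold change ± SE between senescent and control cells (horizontal axis) for each gene with DMSO (squares), IMP1088 (circles) and DDD86481 (triangles). SPRED1 and SPRED2 lie right of 0 with DMSO and left of 0 with each inhibitor, and SPRY1 lies left of 0 throughout.

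The order of the 6 groups differed between genes. DUSP4, DUSP6, SPRY4 and ETV4 had their highest level in senescent cells with DMSO, then senescent cells with an inhibitor, then the control groups, and in each of these genes both inhibitor groups of senescent cells overlapped each other. For DUSP5 and SPRY2 neighbouring senescent groups overlapped throughout, as they did for ETV5, whose highest mean was with DDD86481 (90.9 ± 10.02 CPM). SPRED1 was highest in senescent cells with DMSO and lowest in senescent cells with an inhibitor, with the 3 control groups between. SPRY1 had the reverse order of states, highest in control cells with IMP1088 (60.2 ± 9.74 CPM) and lowest in senescent cells with IMP1088 (1.76 ± 0.370 CPM).

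The other genes of the pathway were described by 8 lists holding 64 genes, with log2 fold changes ± SE in parentheses and medians on the same scale. Their counts stand beside the shares over all genes tested, which were 68.5% in senescence (32.5% higher, 36% lower), 44.4% with IMP1088 (20.6% higher, 23.9% lower) and 43.2% with DDD86481 (20.1% higher, 23.1% lower) in senescent cells. ERK output genes, transcripts known to rise with ERK activity in other systems, had 8 of 10 higher and 1 lower in senescent cells with DMSO (median 1.29). IER3, an immediate early response gene, rose by 3.55 ± 0.19 on the log2 scale (adjusted p = 7.81e-13), PLAUR, the urokinase receptor, by 3.07 ± 0.11 on the log2 scale (adjusted p = 9.76e-16), and CCND1, encoding cyclin D1, by 1.87 ± 0.093 on the log2 scale (adjusted p = 3.36e-13). With either inhibitor 6 of 10 fell and 1 rose in senescent cells (median -0.53 with IMP1088 and -0.51 with DDD86481), led by CCND1 (-1.50 ± 0.092, adjusted p = 2.93e-10 with IMP1088 and -1.33 ± 0.092, adjusted p = 1.53e-09 with DDD86481) and the receptor gene EPHA4 (-1.30 ± 0.19, adjusted p = 1.44e-05 and -1.16 ± 0.19, adjusted p = 5.23e-05). Unlike the 10 feedback genes, this list had as many calls in control cells, where 6 of 10 fell and 1 rose with each inhibitor (median -0.59 with IMP1088 and -0.55 with DDD86481). Of all genes in control cells, 33.7% passed with IMP1088 (16.3% higher, 17.4% lower) and 36.6% with DDD86481 (17.8% higher, 18.7% lower). The difference between the lists was not tested.

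Feedback genes beyond the 10 gave a mixed picture, with shares called near or below those of all genes in senescence. Of 8 family paralogues and other feedback genes, 3 rose and 1 fell in senescent cells with DMSO (median 0.091). SPRED3 rose by 2.11 ± 0.11 on the log2 scale (adjusted p = 1.15e-12) and ERRFI1, an inhibitor of the EGF receptor, by 1.77 ± 0.14 on the log2 scale (adjusted p = 6.61e-10), while IL17RD, a membrane inhibitor of FGF signalling, fell (-2.11 ± 0.16, adjusted p = 3.88e-10). With each inhibitor 4 of the 8 fell in senescent cells (median -0.45 with IMP1088 and -0.41 with DDD86481), among them ERRFI1 (-1.39 ± 0.14, adjusted p = 1.40e-07 with IMP1088 and -1.47 ± 0.14, adjusted p = 8.06e-08 with DDD86481) and ETV1 (-0.83 ± 0.14, adjusted p = 7.27e-05 and -1.07 ± 0.14, adjusted p = 4.98e-06), the third member of the ETV4 and ETV5 subfamily. Of 7 other MAP kinase phosphatases, 3 rose and 1 fell in senescent cells with DMSO. DUSP1, a nuclear phosphatase induced by stress as well as by growth factors, rose by 1.29 ± 0.17 on the log2 scale (adjusted p = 7.92e-07). It rose again with IMP1088 (1.28 ± 0.16, adjusted p = 2.97e-06) and with DDD86481 (1.319 ± 0.16, adjusted p = 2.13e-06), opposite to DUSP4 and DUSP6. With IMP1088 2 of the 7 rose and 2 fell, and with DDD86481 3 rose and 2 fell. With DDD86481 DUSP2 rose (1.78 ± 0.37, adjusted p = 0.000575). DUSP9, higher with both inhibitors, had 1 count in all over the 3 senescent DMSO libraries, 134 counts over the 3 with IMP1088 and 113 over the 3 with DDD86481. Scaled by library size the ratios were 123.5 with IMP1088 (exact 95% counting interval 21.8 to 4916) and 106.1 with DDD86481 (18.7 to 4226), which cover counting error only. In control cells DUSP9 had 1 count with DMSO, 52 with IMP1088 and 43 with DDD86481. The ratios there were 57.6 (9.89 to 2318) and 51.4 (8.74 to 2075).

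In senescence, most lists upstream of ERK had shares called near that of all genes. The receptor tyrosine kinases had 6 of 9 tested genes lower and none higher in senescent cells with DMSO (median -0.96), led by ERBB2 (-2.12 ± 0.13, adjusted p = 1.18e-11), the PDGF receptor gene PDGFRA (-1.97 ± 0.18, adjusted p = 7.37e-09) and MET, the hepatocyte growth factor receptor gene (-1.88 ± 0.17, adjusted p = 6.48e-09). With each inhibitor 4 of the 9 were lower and 1, MET, was higher in senescent cells (0.84 ± 0.18, adjusted p = 0.000645 with IMP1088 and 0.66 ± 0.18, adjusted p = 0.00528 with DDD86481). RAS GTPase activating genes, whose products switch RAS off, had 3 of 6 higher in senescence (median 0.58) and 4 of 6 lower with each inhibitor in senescent cells (medians -0.69 and -0.67). RASA1 rose by 0.72 ± 0.11 on the log2 scale (adjusted p = 6.18e-06) in senescence and fell with IMP1088 (-1.54 ± 0.11, adjusted p = 2.19e-09) and DDD86481 (-1.39 ± 0.11, adjusted p = 8.38e-09). Genes of the RAF-MEK-ERK cascade had 5 of 11 higher and 3 lower in senescence (median 0.32), and 6 of 11 lower with each inhibitor (medians -0.36 and -0.45). RPS6KA3, a kinase that ERK activates, rose by 1.52 ± 0.12 on the log2 scale (adjusted p = 6.60e-10) and fell with IMP1088 (-0.65 ± 0.12, adjusted p = 0.000166) and DDD86481 (-0.52 ± 0.12, adjusted p = 0.00128). Of 7 exchange and adaptor genes 3 rose and 2 fell in senescence and 3 fell with each inhibitor, and of 5 RAS genes 2 rose and 2 fell in senescence and 2 fell with each inhibitor. Without control DMSO replicate 3 the counts of the 8 lists in senescence moved by at most 1 in either direction. Without the filter on low counts, the count of RAS GTPase activating genes higher in senescence was 5. The count of RAS genes lower with IMP1088 was 1 without senescent DMSO replicate 2. Among the exchange and adaptor genes, the fall of GRB2 with IMP1088 (-0.21 ± 0.078, adjusted p = 0.0360) was fragile. It lost its call in 5 of 6 fits that left out a library (adjusted p up to 0.107) and without the filter (adjusted p = 0.118).

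**Figure D4:**
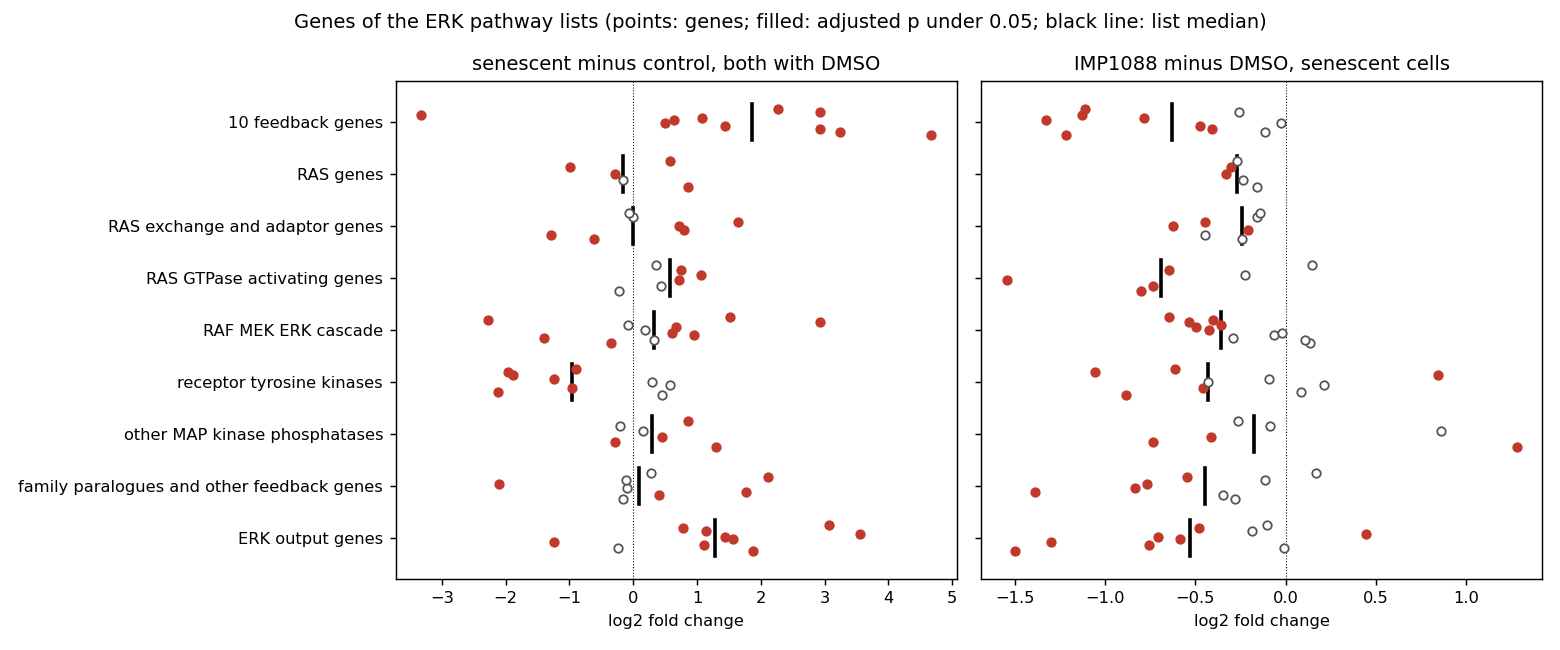
Log2 fold change (horizontal axis) of each gene in the 10 feedback genes and the 8 pathway lists, for senescent against control cells with DMSO (left) and for IMP1088 against DMSO in senescent cells (right). Filled points passed an adjusted p of 0.05, black lines are list medians, and DUSP9 is left out of both panels and of its list's median because it had 1 count over the senescent DMSO libraries. Medians of 1.86 for the 10 genes and 1.29 for the ERK output genes stand to the right of the other lists in senescence.

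Across the 18 libraries, the genes whose log2 CPM followed DUSP6 most closely were SERPINB2 (Pearson r = 0.995), SRD5A3 (0.994) and FAM131A (0.994). SPRY4 was followed by TMX4 (0.987), TLR2 (0.982) and MARS2 (0.979), SPRED1 by CARM1 (0.938), PLAT (0.934) and RIPOR3 (0.933), and ETV5 by B4GALT1 (0.977), DPP4 (0.973) and LPIN1 (0.973). The 18 points fall into the 2 states and share libraries, so these coefficients are descriptions only.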

How the data were processed

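The authors deposited 1 file of raw counts, with gene symbols in rows and the 18 libraries in columns, and these counts are the only measurements used. Per the study's methods, directional poly(A) libraries were read single-end and aligned with TopHat, set to a first-strand library, to hg19 with Ensembl annotation. The submitters' processing notes name DRAGEN, STAR 2.7.8a, DESeq2 1.32.0 and hg38. Which of these made the table, and the strand setting with which genes were counted, are not given in the sources used here. The columns name DDD86481 as PCLX001, a second name that the labels also give.

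Groups came from the labels. Of 28266 genes, 6836 held no count, and filterByExpr in edgeR 4.0.16 (R 4.3.3) kept 14341 genes with 99.962% of the counts. After TMM scaling the quasi-likelihood test was run in 1 fit of 6 groups with 12 residual degrees of freedom. Benjamini-Hochberg adjustment ran over all genes of each of 9 comparisons, and an adjusted p under 0.05 was called. The SE is the log2 fold change divided by the square root of F, and 95% intervals follow from it and the 12 residual degrees of freedom. The test itself adds degrees of freedom shared across genes, so these intervals are wider than those of the test. The floor of 3 counts came to 0.121 to 0.187 CPM and covers counting error only, as reads carried no molecular identifiers. Levels per kilobase used the length of the canonical transcript and exon overlaps all exons of a GENCODE annotation on GRCh37. Positions and promoters came from RefSeq on GRCh38.p14, matched by symbol. No 2 replicates agreed within sampling noise (chi-square per gene from 5.26 to 103.6), and each library was counted once.

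The 10 genes, the pathway and marker lists and the tests were chosen with earlier results of these data known. Each of the 10 genes was named in each comparison, with ranges where most missed the threshold. Of each pathway list up to 3 genes per comparison could be named, those past the threshold with the largest change. As an exception, MET was also named with DDD86481 in senescent cells, as the only receptor gene higher there. Its change was not among the 3 largest of its list. For DUSP6, SPRY4, SPRED1 and ETV5 the 3 genes with the highest r were named. Alternatives were DESeq2 1.42.0, upper quartile scaling, no filter, only the groups compared, a block on the replicate number, CPM by total counts and leaving out each library in turn. Departures from the own group's mean were correlated between libraries with the same number. This was done for each inhibitor group with the DMSO group of its state, and between the 2 states under each treatment. The 2 inhibitor groups of a state were not correlated with each other. Among the groups correlated, all 3 pairs had r above 0.1 only for control DMSO with control IMP1088 (r = 0.394, 0.123 and 0.231). The labels give no batch behind the numbers, so the pairing of these 2 groups rests on that correlation, and the block changed no call of the 10 genes in that comparison.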

Additional observations from a re-analysis of the deposited data

Results flagged for a closer look

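The response to an inhibitor differed between senescent and control cells for 6 of the 10 genes, by the interaction term of edgeR's quasi-likelihood test (log2 difference, senescent minus control, ± SE). For IMP1088 the differences were -1.37 ± 0.18 for DUSP4 (adjusted p = 1.77e-05), -0.45 ± 0.16 for DUSP6 (adjusted p = 0.0454), -1.77 ± 0.24 for SPRY1 (adjusted p = 2.67e-05), -1.16 ± 0.17 for SPRY4 (adjusted p = 5.99e-05), -1.29 ± 0.18 for SPRED1 (adjusted p = 3.49e-05) and -1.38 ± 0.20 for SPRED2 (adjusted p = 4.42e-05). For DDD86481 they were -1.44 ± 0.18 for DUSP4 (adjusted p = 1.09e-05), -0.57 ± 0.16 for DUSP6 (adjusted p = 0.0127), -1.64 ± 0.24 for SPRY1 (adjusted p = 5.67e-05), -1.33 ± 0.17 for SPRY4 (adjusted p = 1.39e-05), -1.27 ± 0.18 for SPRED1 (adjusted p = 4.08e-05) and -1.48 ± 0.20 for SPRED2 (adjusted p = 2.02e-05). Both inhibitors share the DMSO libraries of each state. Only the calls of DUSP6 were lost when a library was left out.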

How the results depend on the processing

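All 10 calls between senescent and control cells with DMSO kept their direction and their side of the threshold under each alternative fit. So did the 7 falls with each inhibitor in senescent cells. Upper quartile scaling moved the median of all genes by -0.15 in that comparison, and by -0.10 with IMP1088 and -0.11 with DDD86481 between the states. It gave 3795 higher and 6149 lower of all genes in senescence with DMSO, against 4663 and 5164 with TMM, and in control cells 1900 and 2918 with IMP1088, against 2333 and 2496, and 2088 and 3258 with DDD86481, against 2554 and 2688. The count of the 10 genes called with IMP1088 in control cells was 4 and fell to 2 with only the groups compared, and it ranged from 2 to 4 when a library was left out. With only the groups compared, fewer samples enter the fit, and calls over all genes in control cells went from 4829 to 2716 with IMP1088 and from 5242 to 2842 with DDD86481. With the replicate block the SPRED2 difference between states with IMP1088 lost its call (-0.31, adjusted p = 0.0568), and the block changed no other call of the 10 genes.

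Values that changed sign were all of genes that missed the threshold, and the cause was not tested. ETV5 with DDD86481 in senescent cells went to -0.0036 with DESeq2, -0.013 with upper quartile scaling and -0.0070 without the filter, and ETV5 with IMP1088 there to 0.0065 with only the groups compared. With upper quartile scaling DUSP6 with IMP1088 and SPRED1 with DDD86481 in control cells went to -0.0099 and -0.046. When a library was left out, log2 fold changes in senescent cells ranged from -0.28 to 0.039 for DUSP5 and from -0.072 to 0.0011 for ETV5 with IMP1088, and from -0.064 to 0.089 for ETV5 with DDD86481. In control cells they ranged from -0.089 to 0.12 for DUSP6, -0.018 to 0.11 for SPRY4 and -0.070 to 0.039 for SPRED1 with IMP1088, and from -0.021 to 0.084 for SPRED1 with DDD86481. The interaction ranged from -0.17 to 0.11 for SPRY2 and -0.16 to 0.0075 for ETV4 with IMP1088, and from -0.029 to 0.14 for SPRY2 and -0.15 to 0.0045 for ETV5 with DDD86481.

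CPM by total counts moved 23 of 60 group levels by more than 1 SD, and no call was made from it. It raised control and lowered senescent levels, as the TMM factors were 1.06 to 1.11 and 0.892 to 0.953. With DMSO, senescent and control levels came closer for the genes that rose and moved apart for SPRY1. ETV5 measured 68.7 ± 6.02 CPM in control and 81.4 ± 4.73 CPM in senescent cells, and SPRED1 67.3 ± 5.45 and 88.2 ± 15.2 CPM. SPRY1 in treated senescent cells rests on the fewest counts, 28 to 40 per library, and its falls there have the largest SE of the 10 genes. Each inhibitor was sampled at 1 dose and 1 time point.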
